A study of Homo sapiens with 2 samples.

Results

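The DNA repair genes described here are the genes of the HEK293T site lists whose symbols belong to the FANC, RAD, XRCC, BRCA, MSH, MLH, ERCC, PARP and LIG families, or are ATM, ATR, TP53BP1, MDC1, BLM, WRN, PALB2 or NBN. The name alone chose them, not how they are methylated. Of 11406 named genes listed in either replicate, 61 met the rule, and 49 of these had at least 1 site listed in both replicates, out of 9521 such genes. The series mapped N6-methyladenosine (m6A) at single-base resolution with GLORI in HEK293T, an established line from human embryonic kidney. Both libraries came from wild-type cells labelled Day 0, with no other treatment than the GLORI reaction on their oligo(dT)-purified mRNA, and there was no second group. In GLORI, unmethylated adenosine is turned into inosine and read as G, while m6A is still read as A, so the methylation level of a site is the share of A among its A and G reads. The labels do not state whether separate cultures were used, so the spread between the replicates may be technical.

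Cells mend damaged DNA by several routes. Homologous recombination copies an intact sister strand with the help of the BRCA proteins, end joining ligates broken ends held by the Ku proteins, and the Fanconi anemia proteins unhook crosslinks between strands. Mismatch repair corrects copying errors, excision repair removes damaged bases or bulky lesions, and ATM, ATR and their mediators signal the damage to the cell cycle. m6A is the commonest internal mark of mRNA, is written mainly at DRACH sequences near stop codons and in long exons, and is known to affect how stable an mRNA is and how it is translated. DRACH stands for A, G or T, then A or G, then the methylated A, then C, then A, C or T. A separate methylation, m6Am, can stand on an adenosine at the first transcribed nucleotide.

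Shared sites at or near annotated transcript starts are shown first, since only there could the sequence around a site be read. Each stretch is 30 bases of the gene's own strand, 5′ to 3′, from RefSeq's GRCh38.p14, and capitals mark the adenosines listed as methylated in either replicate. XRCC6 and PARP1 come from the rule for sites given in full, and MSH6 and ATM were added because they hold the remaining shared sites of this kind.
XRCC6, chr22:41621273-41621302, plus strand: ggaccgagtAcAgggcccgcgcAtgcgtgg
PARP1, chr1:226408074-226408103, minus strand: gccaggcatcAgcaatctAtcAgggaacgg
MSH6, chr2:47783130-47783159, plus strand: agcgcgcctccccccAgatttcccgccagc
ATM, chr11:108223341-108223370, plus strand: ccgggtgcttagcggActtggccaataacc

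The last capital of XRCC6, the only capital of MSH6 and the first capital of PARP1 are each the first nucleotide of an annotated transcript. There XRCC6 had 33.1% of 157 reads in replicate 1 and 25.6% of 180 reads in replicate 2, and MSH6 at 34.4% (32 reads) and 52.2% (23 reads). The first capital of XRCC6, upstream of that start, had 24.1% (29 reads) and 17.1% (35 reads). The middle capital of PARP1, 8 nucleotides after the start, had 12.5% (104 reads) and 12.6% (119 reads), and it was the only site of PARP1 listed in both replicates. The ATM site, 31 nucleotides after the start, had 29.4% (17 reads) and 47.6% (21 reads). The middle capital of XRCC6 and the first and last capitals of PARP1 were listed in replicate 2 alone, at 10.6%, 13.0% and 10.4%. Of these 5 shared sites, that of ATM (GGACT) lay in DRACH, searched on the gene's strand only, and the other 4 did not. Over all genes, 5 of 345 shared sites at a first nucleotide lay in DRACH (1.45%), and 103 of 290 sites shortly after it (35.5%). At a first nucleotide, as in XRCC6 and MSH6, the bases before the A are genomic and lie outside the annotated transcript. The motif search there does not describe the RNA, so these 2 shares cannot be set against each other. DRACH occurs somewhere in 97.2% of 35116 start windows, so its presence in a window says little. m6A and m6Am cannot be told apart at a first nucleotide in these lists.

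The first comparison asked whether the replicates listed the same sites of DNA repair genes at the same levels. Replicate 1 listed 283 sites in them and replicate 2 listed 312, of which 230 were shared. That is 81.3% of the first list (95% Wilson interval 76.3 to 85.4) and 73.7% of the second (68.6 to 78.3), beside 83.5% and 74.1% for all sites of the series. Sites listed once had lower levels, with medians of 19.2% for the 53 of replicate 1 and 25.8% for the 82 of replicate 2. Among shared sites the median was 42.8%, the quartiles were 24% and 67.2%, and the range was 11.2% to 97.5%. The lists start at 15 reads, 5 A reads and a level of 10%, so an unlisted gene or site can be unmethylated, weakly methylated or too thinly covered. Shared sites had a median of 38.5 reads in replicate 1 and 47 in replicate 2, and the deepest reached 1942 reads.

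Levels at shared sites followed each other between the replicates. Pearson's r was 0.930 and Spearman's rho 0.917 across the 230 sites, which share both libraries and are not independent replicates. The median difference was 5.67 percentage points, and the largest was 29.6. With Fisher's exact test, two-sided, 0 of the 230 sites differed after Benjamini-Hochberg adjustment, where 0% of all 60462 shared sites did. An unadjusted p under 0.05 was found at 3 of the 230 (1.30%), beside 3.06% of all shared sites. The chi-square test also called 0, with 7 of the 230 at an unadjusted p under 0.05, beside 2590 of all 60462. The smallest unadjusted p was 0.0055, at position 47800699 of chromosome 2 in MSH6, with 81.2% of 85 reads and 61.6% of 99 reads. The mean chi-square (1 degree of freedom) was 0.978 over the 230 sites, beside 0.931 over all shared sites. At shared sites, no difference beyond the sampling noise of the reads was thus detected. Sites listed once could not enter these tests. The libraries were counted as 1 sample, so values below are given per replicate or as the mean of both, with a counting standard error (SE).

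**Figure D1:**
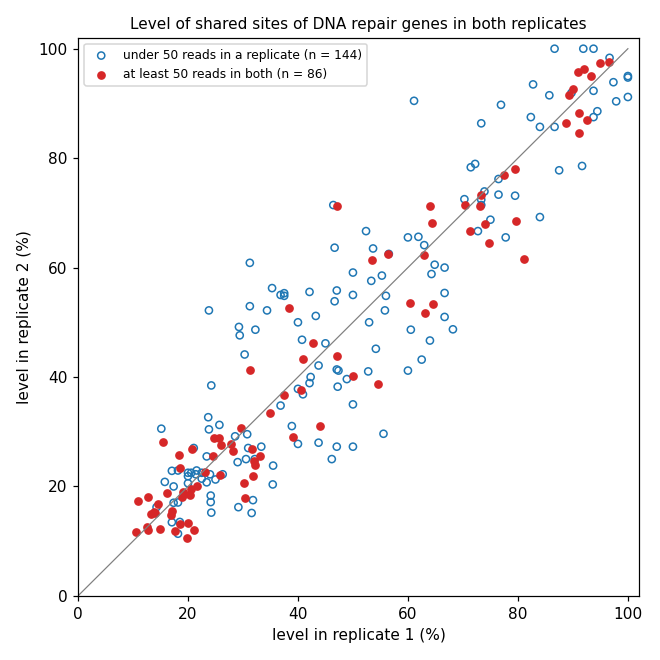
Methylation level (%) of each of the 230 shared sites of DNA repair genes in replicate 1 (x axis) and replicate 2 (y axis), with the line of equal levels. Filled points are the 86 sites covered by 50 reads or more in each replicate, and open points are the other 144; most of both kinds lie along the line.

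The sites were spread unevenly over the repair genes. MSH6, MDC1, LIG3 and RAD9A held 71 of the 230 shared sites (30.9%). A single shared site was found in 11 of 49 genes (22.4%), beside 23.5% of all named genes. The median gene had 3 shared sites and a mean level of 46.3%, beside 4 sites and 46.6% over all named genes. Against the median of all genes in the same decile of deposited gene coverage, 17 of the 49 had more sites, 22 had fewer and 10 had as many. In mean level, 16 lay above the median of their decile and 33 below (32.7% above, beside 50% of all named genes). No test was made of this, since genes are not replicates of a condition.

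**Figure D2:**
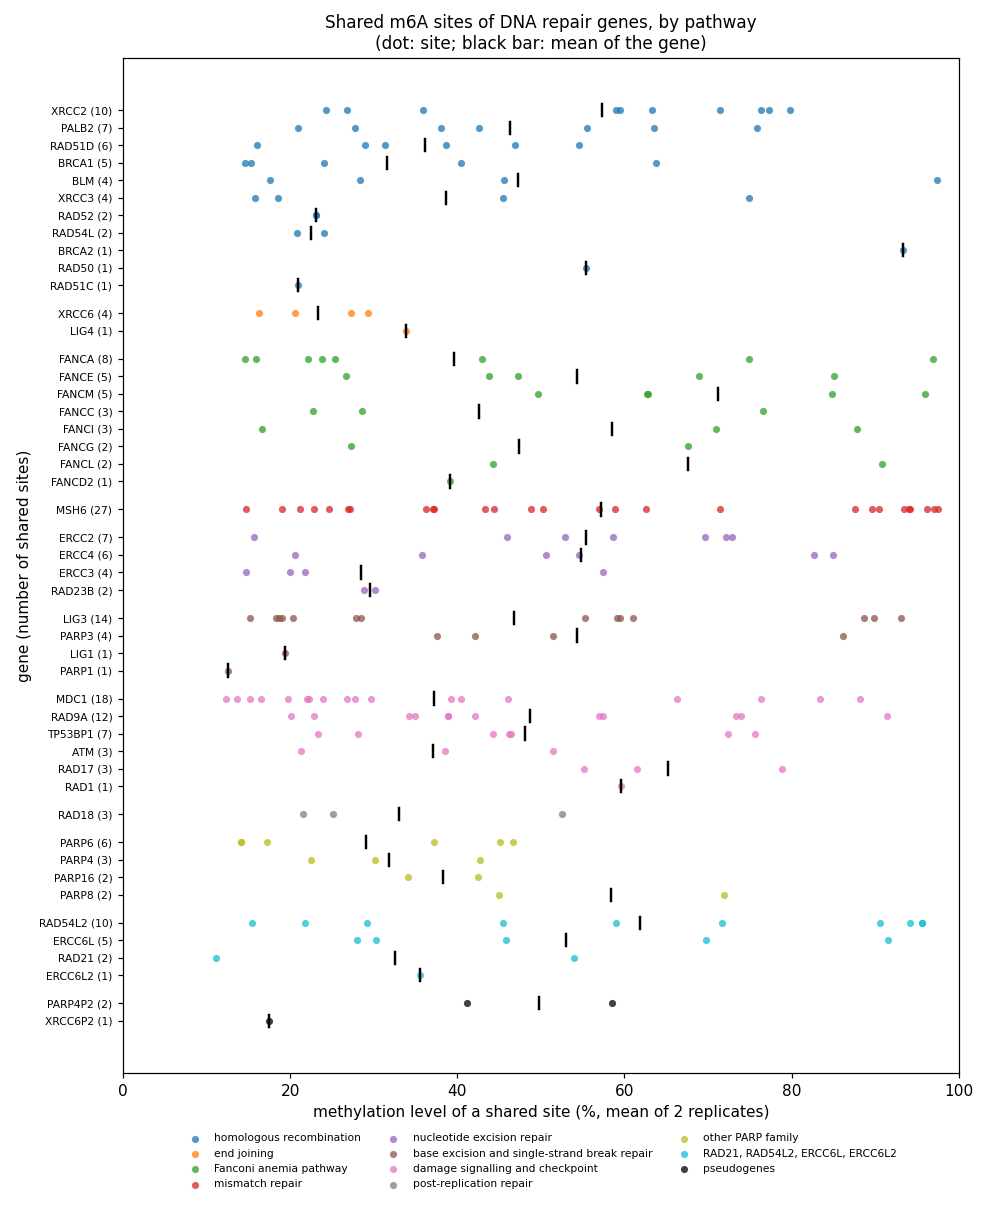
Methylation level (%) of every shared site (dots, mean of 2 replicates) in 47 genes, grouped by repair pathway, with the gene's mean as a black bar and its number of shared sites in brackets. MSH6 has 27 sites from 14.7% to 97.5%, whereas the 4 sites of XRCC6 all lie below 30%.

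Mismatch repair held the most methylated gene by number of sites. MSH6, a subunit of the complex that recognises base mismatches, had 27 shared sites with a mean of 57.2% ± 0.76 (SE), with 56.8% in replicate 1 and 57.5% in replicate 2. It ranked 138 of 9521 genes by sites, and the median of its coverage decile was 4 sites and 40.1%. Of the 27 sites, 25 lay within 2368 nucleotides (positions 47798753 to 47801120, chromosome 2, plus strand), the 51st place among all genes for sites in a 2500-nucleotide window. High and low levels stood side by side: 9 of the 27 sites were at or above 80% and 7 were under 30%. The deepest site, position 47799970, had 19.3% (181 reads) and 18.6% (188 reads). By contrast, position 47800758 had 96.6% (119 reads) and 97.5% (120 reads). MLH3, MSH3, MSH4 and MSH5 had no listed site in either replicate.

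Homologous recombination genes differed widely in level. The 12 genes with a shared site had 44 sites, a median of 3 per gene, and a median gene mean of 42.5%. XRCC2, which acts in strand exchange, led with 10 sites and 57.4% ± 1.9 (58.1% and 56.6%), of which 7 were at or above 50%. Its best covered highly methylated site, position 152648826 of chromosome 7 (minus strand), had 77.5% (71 reads) and 77.0% (100 reads). PALB2, which joins BRCA1 to BRCA2, had 7 sites and 46.3% ± 2.4, and 6 of them lay within 244 nucleotides. RAD51D, a partner of XRCC2, had 6 sites and 36.1% ± 2.2 (39.5% and 32.7%), all of which also lie in the annotated readthrough gene RAD51L3-RFFL on the same strand.

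BRCA1, a ubiquitin ligase that directs end resection, had 5 sites and a mean of 31.6% ± 2.3. Position 43044435 of chromosome 17 (minus strand) was at 61.9% (21 reads) and 65.6% (32 reads), and the other 4 lay between 14.6% and 40.5%. BLM, a helicase that dissolves recombination intermediates, had 4 sites from 17.6% to 97.4%. XRCC3 also had 4, and its deepest, position 103698899 of chromosome 14 (minus strand), had 16.9% (136 reads) and 14.7% (156 reads). BRCA2, a mediator of strand exchange, had a single site at 86.7% (15 reads) and 100% (29 reads). Its Wilson interval on summed reads was 84.9 to 98.7. RAD51C had 1 site at 20.9% and RAD50, of the end-resecting MRN complex, 1 at 55.4%. RAD52 and RAD54L had 2 sites each, all between 20.8% and 24.1%. NBN, WRN, RAD51B, RAD51AP1 and RAD51AP2 had no listed site.

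In end joining, XRCC6, which encodes Ku70, a subunit of the DNA end-binding clamp, was the gene with the highest deposited coverage among the repair genes. Its mean was 23.4% ± 1.5 over 4 sites, 25% in replicate 1 and 21.8% in replicate 2. The deepest site of all repair genes, position 41663811 of chromosome 22 (plus strand), had 17.0% (1557 reads) and 15.6% (1942 reads), and position 41663936 had 25.6% (790 reads) and 28.9% (896 reads). LIG4, the ligase of this route, had 1 site at 33.9% ± 7.3. XRCC5, the Ku80 partner, was listed in replicate 2 alone, at 12.1% of 140 reads, and XRCC4 had no listed site. None of the 5 shared sites of XRCC6 and LIG4 reached 50%. The 5 other end joining genes with a shared site, outside the naming rule, had a median gene mean of 46.7%. Their means ran from 12.4% ± 1.2 in PAXX (1 site) to 63.7% ± 3.4 in POLM (2 sites). Between them lay PRKDC with 41.7% ± 1.6 (3 sites), POLL with 46.7% ± 1.2 (15 sites) and POLQ with 54.7% ± 5.3 (2 sites).

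The Fanconi anemia genes had a median gene mean of 50.9% over 8 genes with 29 sites (39.1% to 71.2%), and 5 of the 8 lay above the median of their coverage decile. The 10 other genes of that pathway with a shared site, outside the naming rule, had a median of 41.1%. FANCM, the DNA translocase that anchors the core complex, reached 71.2% ± 2.4 over 5 sites (71.0% and 71.4%), the highest mean of any repair gene with at least 5 sites. Its coverage was in the lowest decile, where the median over all genes was 2 sites and 58.6%. All 5 sites of FANCM lay within 289 nucleotides, and the highest, position 45136309 of chromosome 14 (plus strand), had 91.9% (37 reads) and 100% (40 reads). FANCA had the most sites, 8, with a mean of 39.6% ± 1.7. Its deepest site, position 89738596 of chromosome 16 (minus strand), had 30.2% (139 reads) and 20.6% (170 reads), and 5 of the 8 were under 30%. FANCI, which is clamped on DNA with FANCD2, had 3 sites, led by position 89316483 of chromosome 15 (plus strand) at 91.0% (67 reads) and 84.5% (71 reads). FANCD2 had a single site, at 39.1% ± 3.8. FANCE and FANCL, of the core complex, had means of 54.4% ± 2.1 and 67.5% ± 2.9. FANCB had 3 sites in replicate 1 and none in replicate 2, and FANCF none at all.

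Nucleotide excision repair had 4 genes with 19 shared sites and a median gene mean of 42.2%. ERCC2 (XPD), a helicase of the transcription factor TFIIH that opens DNA around a lesion, had 7 sites within 1454 nucleotides and a mean of 55.4% ± 2.0 (55.5% and 55.2%). Its deepest site, position 45350307 of chromosome 19 (minus strand), had 14.5% (110 reads) and 16.8% (119 reads). Position 45350680 had 73.0% (63 reads) and 71.2% (73 reads). The ERCC2 sites lie where KLC3 is also annotated. ERCC4 (XPF), a nuclease subunit that cuts beside the lesion, had 6 sites and 54.8% ± 2.8. ERCC3 (XPB), the other TFIIH helicase, had 4 sites and 28.5% ± 2.0, of which 3 were under 30%. RAD23B, which stabilises the damage sensor XPC, had 2 sites and 29.5% ± 4.0. ERCC5 and ERCC6 were each listed in a single replicate, and ERCC1 and ERCC8 had no listed site.

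Base excision and single-strand break repair was led by LIG3, the ligase that seals nicks in the nucleus and in mitochondria. It had 14 sites and 46.7% ± 1.2, with 46.7% in replicate 1 and 46.8% in replicate 2. Of the 14, 7 were at or above 50% and the other 7 under 30%, with none between. The highest of the sites with 50 reads or more in each replicate, position 34983245 of chromosome 17 (plus strand), had 92.6% and 87.0%, with 54 reads in each replicate. PARP3, a sensor of DNA ends, had 4 sites and 54.3% ± 3.1. PARP1, the main sensor of strand breaks, had its single site at 12.6% ± 2.2, the lowest gene mean of all 49, and LIG1 a single site at 19.4% ± 2.9. All 4 genes lay below the median level of their coverage decile. PARP2 had no listed site, and XRCC1 was listed in replicate 1 alone, at 18.8% of 32 reads.

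Among damage signalling genes, MDC1, the scaffold that binds phosphorylated H2AX at breaks, had 18 sites and a mean of 37.2% ± 1.0 (36.5% and 37.9%). Of these, 11 were under 30% and 4 at or above 50%. The deepest, position 30713946 of chromosome 6 (minus strand), had 15% (160 reads) and 12.2% (180 reads), while position 30714048, just beyond it, had 64.4% (101 reads) and 68.1% (116 reads). Of the MDC1 sites, 15 lie where MDC1-AS1 is annotated. RAD9A, of the checkpoint clamp, had 12 sites, all within 778 nucleotides at the end of the gene, and a mean of 48.7% ± 1.4. Its position 67397778 of chromosome 11 (plus strand) had 90.1% (111 reads) and 92.6% (136 reads). TP53BP1, which protects ends from resection, had 7 sites and 48.1% ± 2.5. RAD17, the clamp loader, had 3 sites and 65.2% ± 3.5, ATM, the kinase activated by breaks, 3 and 37.1% ± 4.1, and RAD1 1 site at 59.5%. ATR had no listed site. RAD18, the ubiquitin ligase of post-replication repair, had 3 sites and 33.0% ± 3.4.

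The pattern of names also took genes that were placed outside the repair pathways above. PARP6 had 6 sites and 29.1% ± 1.8, the lowest mean among repair-named genes with at least 5 sites, and its deepest site, position 72241262 of chromosome 15 (minus strand), had 13.2% (151 reads) and 14.9% (201 reads). PARP4, PARP8 and PARP16 had 2 or 3 sites each. RAD54L2, a chromatin remodeller, had 10 sites and 61.8% ± 1.4, with 8 of them within 688 nucleotides. ERCC6L, a mitotic helicase, had 5 sites and 53.1% ± 2.4, RAD21, a cohesin subunit, 2 and 32.6% ± 2.9, and ERCC6L2 1. The pseudogenes PARP4P2 and XRCC6P2 had 2 sites and 1, and their reads are hard to separate from those of their parent genes. The names without a shared site also included RAD54B and the pseudogene or readthrough names MSH5-SAPCD1, PARP1P1, RAD1P1 and XRCC6P5. Of the 78 genes placed in or outside the pathways, without the pseudogene, antisense and readthrough names, 24 had no listed site at all.

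**Figure D3:**
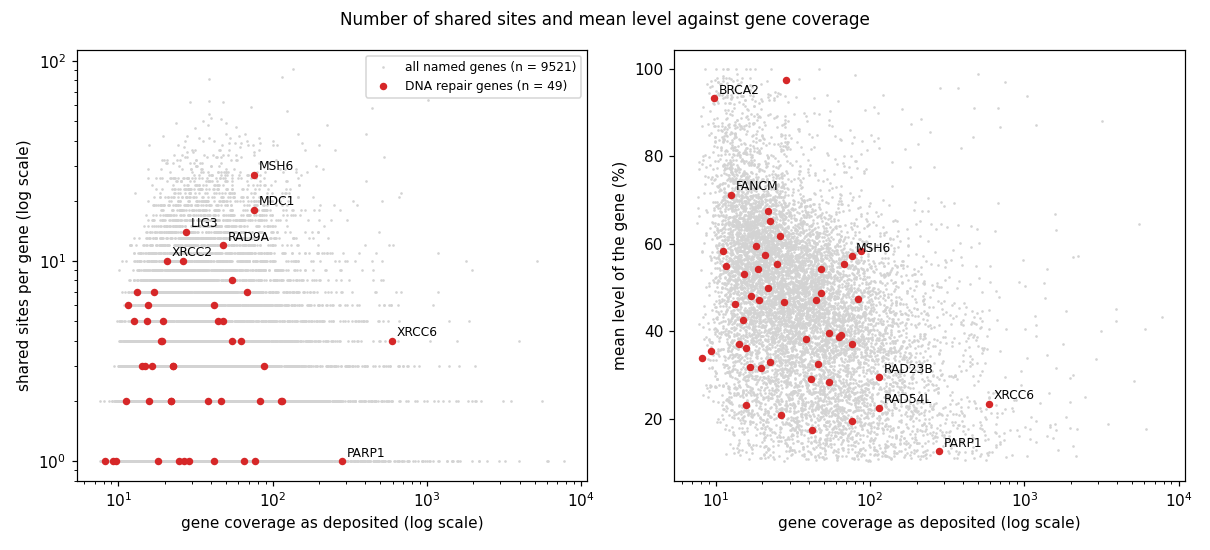
Number of shared sites (left, log scale) and mean level in % (right) of each gene against its deposited coverage (log scale), with 49 DNA repair genes in red over all 9521 named genes in grey. The 4 repair genes with a coverage of at least 100 (RAD54L, RAD23B, PARP1, XRCC6) have means between 12.6% and 29.5%. The 1339 named genes at such coverage range from 10.4% to 98.8%.

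Coverage moved with level across the genes. Spearman's rho between gene coverage and mean level was -0.293 over the 49 repair genes and -0.418 over all named genes, which share the libraries and the limits of the lists. Repair genes with a coverage under 20 had a median mean level of 46.8% (18 genes), and those at 50 or above 37.9% (14 genes). Over all named genes the same medians were 56.7% (2703 genes) and 37.2% (3097 genes). The part of coverage in the differences between pathways was not tested.

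Levels often differed between sites of the same mRNA. A chi-square test on summed A and G counts, adjusted over all genes with at least 2 shared sites, called 33 of the 38 repair genes tested (86.8%), beside 89.6% of all 7287 genes, so the repair genes do not stand apart in this. RAD52, RAD54L, RAD23B, PARP16 and PARP4P2, each with 2 sites, were not called. Neighbouring sites at most 30 nucleotides apart were compared with Fisher's exact test, which called 29 of 41 pairs in repair genes (70.7%), beside 67.9% of 10496 pairs in all genes. Reads can span both sites of a pair, so these counts are not independent. The median difference was 29.5 percentage points in repair genes and 23.9 in all.

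The widest gap stood in MSH6, where positions 47799435 and 47799439 lay 4 nucleotides apart. The first had 24.1% (29 reads) and 18.3% (60 reads), and the second 96.7% (30 reads) and 98.3% (60 reads), an adjusted p of 5.74e-29 by Fisher's exact test. In RAD9A, positions 67397778 and 67397787, 9 nucleotides apart, had means of 91.4% and 20.1% (adjusted p = 2.58e-60, Fisher's exact test). In BLM, positions 90760773 and 90760784 of chromosome 15 had 97.4% and 28.3%, 11 nucleotides apart (adjusted p = 5.65e-28, Fisher's exact test). In FANCI, positions 89316868 and 89316874 had 70.9% and 16.7%, 6 nucleotides apart (adjusted p = 4.35e-21, Fisher's exact test). Other neighbours were alike: positions 47800753 and 47800758 of MSH6 had 96.2% and 97.1%, and those of FANCM at 45136095 and 45136116 had 62.7% and 62.8%. In each pair named, both replicates had the same site higher where the pair was called.

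**Figure D4:**
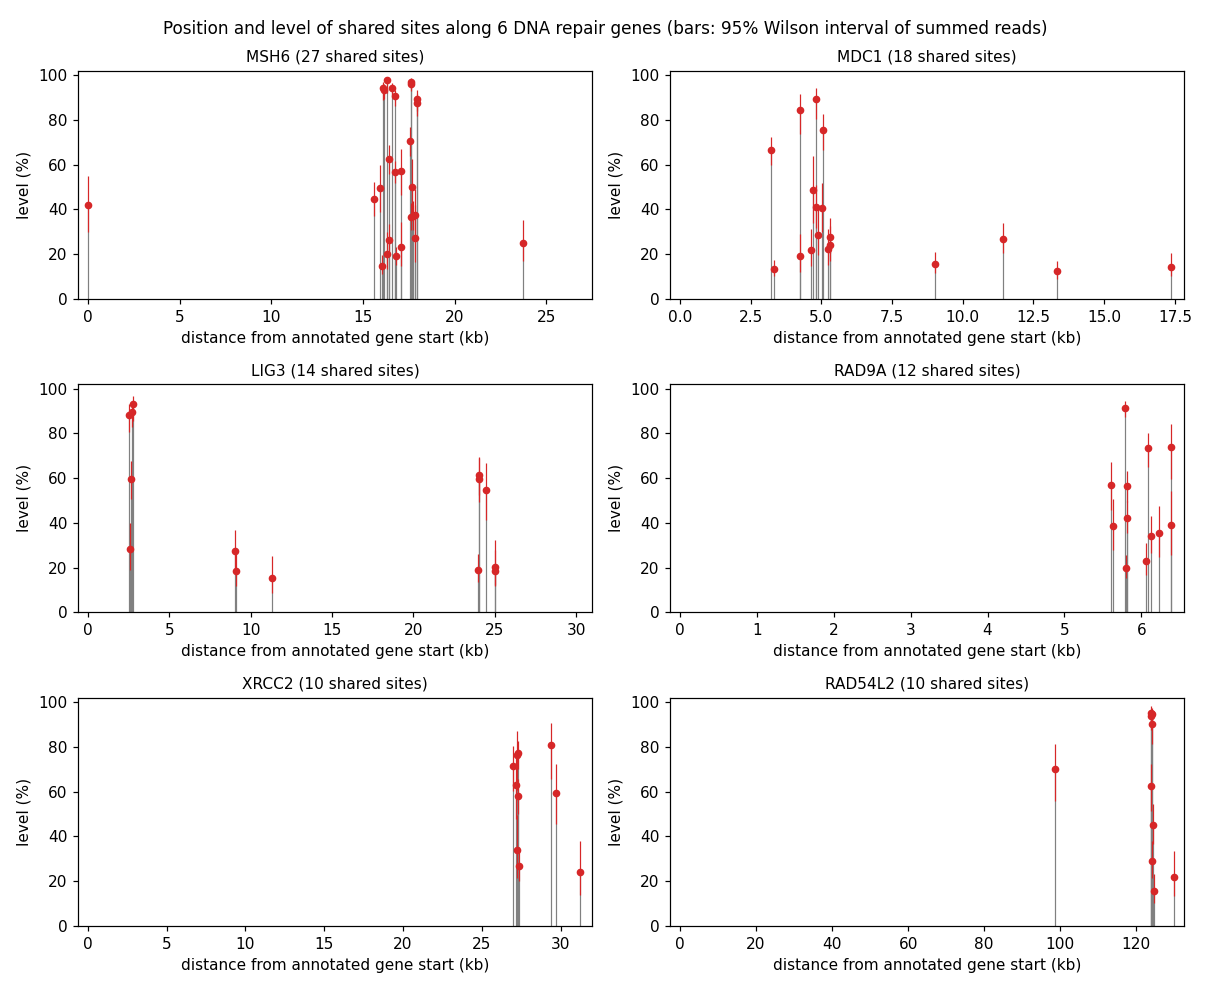
Methylation level (%, from summed reads, with 95% Wilson intervals) of the shared sites of 6 DNA repair genes against distance from the annotated gene start (kb, in the direction of transcription). Sites of MSH6 and RAD9A gather in a single stretch, and those of LIG3 fall into separate stretches.

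Sites were set against RefSeq's gene spans, without exons or coding sequence, which were not analysed here. Of 226 repair sites inside protein-coding genes, 85 lay in the last 10% of the span (37.6%, Wilson interval 31.6 to 44.1), beside 44.1% of all such sites. Within 1 kb of the annotated end lay 56 (24.8%, interval 19.6 to 30.8), beside 21.6%. The median distance between neighbouring sites of a gene was 102 nucleotides, beside 90 over all genes, and 22.7% of the distances in repair genes were at most 30 nucleotides, beside 22.5%. In 15 of the genes, 56 sites lie where another gene is annotated on the other strand or without a stated strand. These include 5 sites of FANCA (ZNF276), 3 of FANCI (POLG), 4 of XRCC3 (KLC1), 5 of ERCC6L (PIN4) and 3 of RAD9A (PPP1CA).

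Other genes of the same pathways, listed from general knowledge of their membership, were counted in the same way. Of 110 such genes, 81 had a shared site, 412 sites in all, with a median of 4 per gene and a median gene mean of 43.5%. By pathway this median ran from 23.5% in mismatch repair (4 genes) to 61.2% in post-replication repair (7 genes). It was 40.6% in base excision (16 genes) and 40.8% in nucleotide excision (12 genes). Homologous recombination had 43.8% and signalling 44.0%, with 15 genes each. FAAP100, of the Fanconi core complex, had 19 sites and 45.7% ± 1.0, and FEN1, the flap nuclease of base excision repair, 17 sites and 49.3% ± 0.58. H2AX, the histone that MDC1 binds, had 16 sites and 54.8% ± 0.47. EXO1, the nuclease that acts after mismatch recognition, had 8 sites and 43.8% ± 1.3, and PCNA 3 sites and 22.7% ± 0.85. Among the 6 other mismatch repair genes of the list, the 8 sites of EXO1 were the most, against 27 in MSH6.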

How the data were processed

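Both GLORI libraries of wild-type HEK293T cells were used. Per the file headers, the deposited lists give for each site a count of A and G reads, a count of A reads, their ratio as a fraction, a conversion fraction, a coverage signal for the gene, and both a raw and an adjusted p-value. The methylation fraction deposited by the authors equals A over A plus G within 5e-06. GRCh38 is the build in the submitters' processing notes, which also list Bowtie, STAR, SAMtools and Trim Galore 0.6.6 without settings. The sources used here do not name the site caller or the method behind the gene coverage. Median conversion of the repair genes was 97.9% in both libraries, beside 97.6% over the whole lists. Listed sites of repair genes held 16129 reads of A or G in replicate 1 and 19956 in replicate 2, which is not the depth of the libraries.

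A shared site has the same position and strand in both lists. Intervals are 95% Wilson intervals on summed counts. They and the standard errors cover counting error only, since reads of 1 molecule could not be recognised. Replicates were compared with Fisher's exact test and Benjamini-Hochberg adjustment over all shared sites at 0.05 (Python 3.11.15, pandas 2.3.3, scipy 1.17.1), tested on simulated data. The tests among a gene's sites and between neighbours were added after the data were seen. Gene spans and starts are RefSeq's, in which all 61 names were found.

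The members and gene lists were chosen with earlier results of these data known. Genes given in full are the 12 with the most shared sites (with ties), the 5 highest and 5 lowest means among those with at least 5 sites, and the leader of each pathway. Sites given in full are the deepest of each pathway and its highest with at least 50 reads in both replicates. Other sites and pairs were chosen after their values were seen. Alternatives varied the minimum reads and level, the replicates, the gene summary and the names taken. A few member genes enter the counts and medians but are not reported here by name.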

Additional observations from a re-analysis of the deposited data

How the results depend on the processing

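The median level of sites and genes moved with the limits, so levels belong to the limits under which they were listed. With at least 30 reads in both replicates, the median site level went from 42.8% to 36.7% and the median gene mean from 46.3% to 38.7%. The median gene mean became 34.7% in homologous recombination, 54.4% in Fanconi anemia, 29.3% in nucleotide excision, 31.9% in base excision and 44.4% in signalling. Sites per gene became 2.5 in nucleotide and 1.5 in base excision, and 15 of 22 neighbouring pairs were called. With at least 50 reads, the tests called 14 of 16 genes and 9 of 13 neighbouring pairs. The 86 sites left had medians of 29.7% for sites and 30.01% for genes. The same medians then were 24.5%, 47.4%, 39.6% and 28.5% in the first 4 pathways, with 1.5 sites per gene in homologous recombination, 2 in nucleotide and 1 in base excision. In signalling, 3 of 6 genes were left, with 48.8%. With a level of at least 20%, medians rose to 49.96% (sites) and 52.8% (genes), and to 55.4%, 53.6%, 59.6%, 56.3% and 51.8% in the 5 pathways in that order, with 7 sites per base excision gene. The order of these 5 pathways changed with the limits. As listed, Fanconi anemia genes had the highest median of the 5 at 50.9%, signalling genes had 48.4%, and base excision genes had the lowest at 33.1%. The 2 mismatch repair genes, whose median was not varied, stood above all of these at 52.2%. Fanconi anemia genes came below signalling genes at 50 reads and without replicate 2. At a level of at least 20%, they came below both excision pathways and homologous recombination. Only 2 of the 4 base excision genes had a site left at that limit.

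With either replicate left out, all sites listed in the other were taken, 283 or 312 in place of the 230 shared sites. The site median was then 35.5% to 38.3% and the gene median 42.4% to 42.7%. At the shared sites alone, the gene median was 46.2% in replicate 1 and 44.4% in replicate 2. The pathways then gave 38.7% to 43.1%, 46.0% to 53.7%, 36.4% to 50%, 18.8% to 30.4% and 46.0% to 46.6%. Sites per gene were 4 to 5 in homologous recombination and 2 to 4.5 in base excision. From summed reads, gene means had a median of 43.1%, with 40.6%, 49.7%, 40.7% and 47% for homologous recombination, Fanconi anemia, nucleotide excision and signalling. Without sites near annotated starts, the site median was 43.4% and base excision had 4 sites per gene and 46.7%, since PARP1 then has no site. Sites with at least 50 reads were shared at 86.5% and 84.1%. Leaving out the protein-coding genes placed outside the repair pathways left 199 shared sites and a median site level of 42.9%. Sites then differed in 27 of 31 genes tested. Leaving out pseudogene, antisense and readthrough names left 227 shared sites and 42.9%, with 33 of 37 genes called. The cause of these shifts was not tested. Shares by untranslated region, and DRACH shares beyond transcript starts, were not run, as they need exons and a genome not used here. No paired analysis was possible because there is 1 group.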

Other observations

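In 3 further repair genes, a site listed in a single replicate lay just upstream of an annotated start. ERCC5 had 50% of 26 reads in replicate 2, FANCG 58.8% of 17 reads in replicate 2, and XRCC1 18.8% of 32 reads in replicate 1. The ERCC5 and FANCG sites lie in DRACH and that of XRCC1 does not. Over all genes, 105 of 184 shared sites before an annotated start lay in DRACH (57.1%).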
